A study of Mus musculus with 16 samples.

Results

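The collagen genes are all rows of the expression table whose symbol is Col, a number, the letter a and a number, such as *Col1a1*. There were 34 of them among 18209 named genes, and 30 of them were tested among 15781 genes, since their normalized count was 10 or more in 4 or more libraries. Livers of 16 mice labelled as male and 20 days old were sequenced, 4 for each of 4 genotypes. The reads per library recovered from the deposited values numbered 11386716 to 19164156, which is not the full sequencing depth. *Trsp* fl/fl mice carry floxed alleles of the selenocysteine tRNA gene and no Cre. *Trsp* fl/fl::*Alb*Cre mice also carry a Cre transgene under the albumin promoter, which deletes *Trsp* in hepatocytes. Whether each other type of liver cell kept the gene was not tested. The third genotype joins *Keap1* C226S&C613S homo, homozygous substitutions to serine of cysteines with which KEAP1 senses hydrogen peroxide, to *Trsp* fl/fl. The fourth joins *Keap1* C226S&C613S homo to *Trsp* fl/fl and *Alb*Cre. Both are called *Keap1*-mutant below, their substitutions are in all cells, and the labels of the other genotypes name no *Keap1* allele. All 4 genotypes, the controls included, carry floxed *Trsp*. No group has *Alb*Cre without floxed *Trsp*, so an effect of Cre itself cannot be told apart from that of the deletion. The difference by *Alb*Cre is what is called the *Trsp* knockout effect below. *Trsp* itself was not analysed here.

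Collagens are built from triple helices of alpha chains, each chain encoded by its own gene. Fibrillar collagens (types I, III and V) form the cables of connective tissue, type IV chains form the sheet of basement membranes, and type VI chains form beaded filaments in the space between. In liver, most fibrillar collagen is made by hepatic stellate cells and portal fibroblasts, and its transcripts increase when stellate cells turn into myofibroblasts during fibrosis. Collagen XVIII, a basement membrane collagen whose C-terminal fragment is endostatin, is also made by hepatocytes. In RNA of whole liver, fewer cells of a type and less RNA per cell cannot be told apart.

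Promoter sequences are shown for 3 collagens of pairs whose counts varied together over the libraries. They are bases before the RefSeq start that no exon of GENCODE M21 covers, from RefSeq on build GRCm38.p6. Capitals mark 4 motifs, read on both strands: the CCAAT box, the TATAAA box, the GGGCGG site of SP1 and the letters TGACNNNGC, a core of the element that NRF2 binds. The stretch of *Col1a2* (a chain of type I collagen) is chr6:4505370-4505492 on the plus strand and ends 125 bases before the RefSeq start. That of *Col3a1* (the chain of type III collagen) is chr1:45311413-45311537 on the plus strand. The 71 bases of *Col4a4* at chr1:82586850-82586920, read on the minus strand, lie between *Col4a4* and *Col4a3*, chains of type IV collagen that are transcribed away from each other.
Col1a2: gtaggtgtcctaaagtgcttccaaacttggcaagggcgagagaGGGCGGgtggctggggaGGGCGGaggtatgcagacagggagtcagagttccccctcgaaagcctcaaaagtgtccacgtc
Col3a1: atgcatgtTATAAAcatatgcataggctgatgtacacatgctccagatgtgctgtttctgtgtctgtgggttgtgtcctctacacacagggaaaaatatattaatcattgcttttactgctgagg
Col4a4: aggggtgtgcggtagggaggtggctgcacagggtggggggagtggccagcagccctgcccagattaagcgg
The *Col1a2* stretch holds GGGCGG 2 times and the *Col3a1* stretch holds TATAAA 1 time, and the *Col4a4* stretch holds none of the 4. RefSeq entries were found for 28 of 34 collagen genes, without *Col1a1*, *Col4a3*, *Col5a2*, *Col9a3*, *Col12a1* and *Col14a1*. In the 250 bases before the start, GGGCGG was in 18 of 28 collagen promoters (64.3%) and in 32.9% of 27025 promoters. The CCAAT motif was in 9 of 28 (32.1%, 34.5% of all), that of the TATA box in 3 of 28 (10.7%, 13% of all) and TGACNNNGC in 5 of 28 (17.9%, 10.1% of all). These matches describe letters, not binding.

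The share of reads on collagen genes was 0.203% in the lowest library and 0.377% in the highest. Per length, taken as the longest protein-coding transcript in GENCODE M21, *Col18a1* had the highest level with 3042 normalized counts per kilobase, as a mean over 16 libraries. *Col3a1* followed with 1188, *Col4a1* with 477, *Col1a1* and *Col14a1* with 397 each, *Col1a2* with 359 and *Col4a2* with 290. *Col18a1* alone accounted for 42.4% of the collagen reads on average (range 23.4% to 53.2%). The 9 fibrillar genes took 31.4% (24.1% to 49.1%), the 6 type IV genes 13.7% (10.8% to 16.9%), the 5 fibril-associated genes 6.77% and the 5 type VI genes 5.02%. *Col7a1* (anchoring fibrils), *Col9a3*, *Col23a1* and *Col28a1* were not tested because they were under the filter, with highest normalized counts of 10.3, 9.59, 11.9 and 8.63 in any library.

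A gene was called when its absolute log2 fold change was over 1 and its adjusted p under 0.01 (limma on the deposited log2 values, Benjamini-Hochberg over all genes tested). Values are on the scale of log2(normalized count + 4), which understates changes of weakly expressed genes. No collagen gene was called in any comparison by limma, nor by limma voom on the recovered reads. In *Trsp* fl/fl::*Alb*Cre against *Trsp* fl/fl livers, 0 of 30 collagen genes were called, beside 0.215% of all genes, and 1 of 30 had an unadjusted p under 0.05, beside 11% of all genes. In *Keap1*-mutant livers with against without *Alb*Cre, 0 were called (0.171% of all) and 2 had an unadjusted p under 0.05 (13.6% of all). For the *Keap1* substitutions in mice without *Alb*Cre, the numbers were 0 (0.0127% of all) and 2 (9.07% of all). For the substitutions in mice with *Alb*Cre, they were 0 (0.57% of all) and 3 (17.6% of all). The difference in the *Trsp* knockout effect between *Keap1* backgrounds gave 0 (0.057% of all) and 2 (10.8% of all). With voom, these counts at an unadjusted p under 0.05 were 1, 2, 2, 3 and 1, for which the shares over all genes are not given. The lowest adjusted p of any collagen gene was 0.067, for *Col27a1*. Comparisons share groups, so their values are not independent of each other.

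Counts of collagen genes whose 4 libraries did not overlap between groups were no larger, as shares, than those over all genes tested. They were 1 of 30 (*Col12a1*) for *Alb*Cre in mice without *Keap1* substitutions, beside 6.01% of all genes tested, and 2 of 30 (*Col5a3* and *Col15a1*) for *Alb*Cre in *Keap1*-mutant mice, beside 7.69%. They were 0 for the substitutions without *Alb*Cre, beside 6.23%, and 2 of 30 (*Col24a1* and *Col27a1*) for the substitutions with *Alb*Cre, beside 8.61%. The median SD within a genotype was 0.416 on the log2 scale over the 30 collagen genes and 0.299 over all genes tested.

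**Figure D1:**
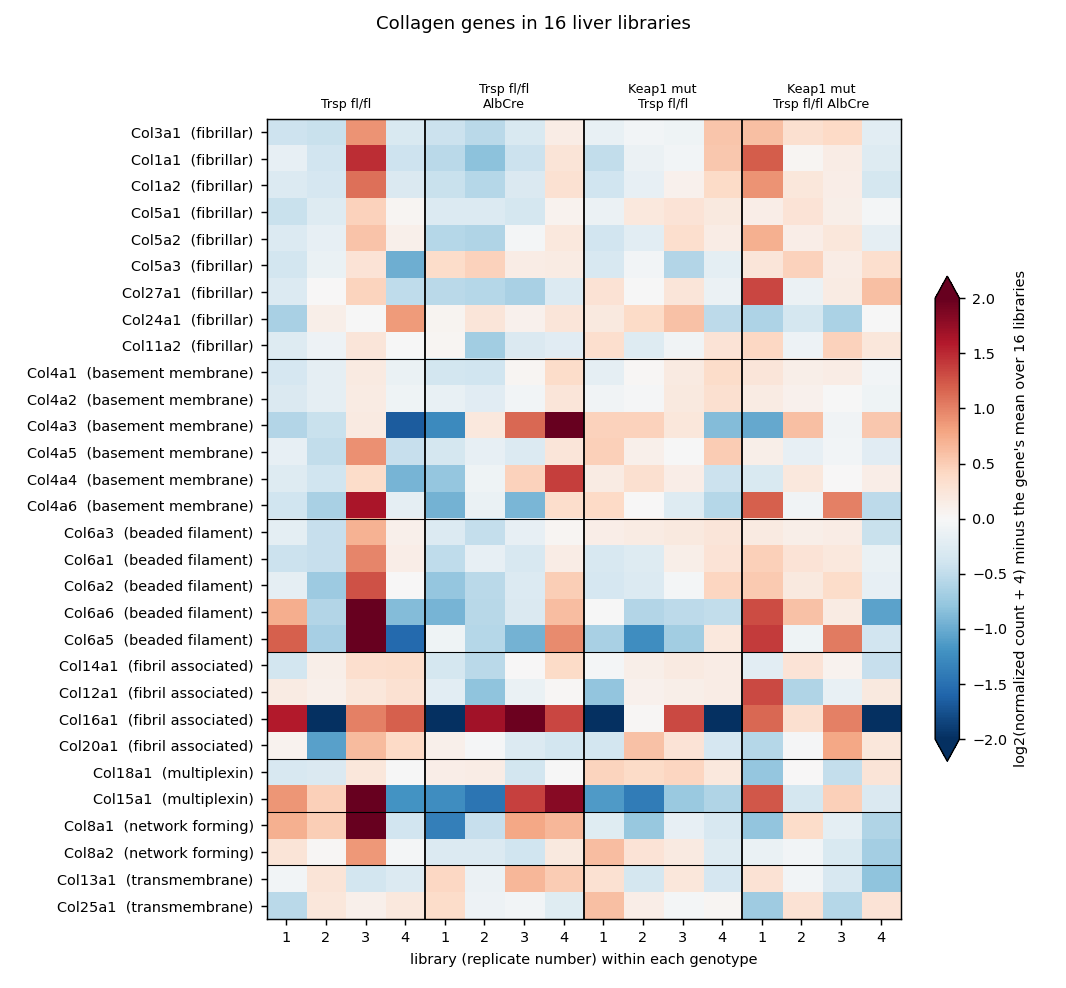
Colours give log2(normalized count + 4) of each tested collagen gene in each of 16 libraries, minus the mean of that gene over the libraries. Rows are grouped by class and columns by genotype, and the column of *Trsp* fl/fl replicate 3 is the highest for 14 of 30 genes.

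*Trsp* fl/fl replicate 3 was the library in which 14 of 30 tested collagen genes reached their highest value. In *Keap1*-mutant *Trsp* fl/fl::*Alb*Cre replicate 1, 3 were highest and 12 of 30 were highest or second highest. The mouse of this library is labelled male, but *Xist* had 28799 reads there (22 to 50 elsewhere) and 4 Y-linked genes had 2. In *Trsp* fl/fl::*Alb*Cre replicate 4, 4 were highest and 7 highest or second highest. There 27 of 30 were above their genotype mean, against 28 in *Trsp* fl/fl replicate 3 and 21 in the library with *Xist* reads. Of the cell type marker sums, those of myofibroblasts and portal fibroblasts were highest in *Trsp* fl/fl replicate 3 and *Keap1*-mutant *Trsp* fl/fl::*Alb*Cre replicate 1. The sums of no other cell type list were highest in both. Those of sinusoidal endothelial markers were 12573 and 11960 there, within the 8989 to 14438 of the other libraries. Those of Kupffer cell markers were 4194 and 7079, within 3491 to 13741. The sum of 10 myofibroblast markers was 5722 normalized counts in *Trsp* fl/fl replicate 3 and 3568 in *Keap1*-mutant *Trsp* fl/fl::*Alb*Cre replicate 1, and lay between 1812 and 3114 in the other 14 libraries. A sum does not stand for each marker. The markers *Acta2* and *Tagln* had 216 and 221 in *Trsp* fl/fl replicate 3, below the 252 and 342 of *Trsp* fl/fl::*Alb*Cre replicate 4. The sum of 12 portal fibroblast markers was 3403 and 2398 in these libraries, against 903 to 1803 elsewhere. The sum of 6 mesothelial markers was 935 in *Trsp* fl/fl replicate 3 and 354 in the other library, against 136 to 469 elsewhere. The sum of 13 stellate markers was 21876 and 15003, within or just below the range of 15380 to 22577 elsewhere. None of the markers in the table was at 0 in all libraries, and the part of these cells in the collagen values was not tested. Without *Trsp* fl/fl replicate 3 and *Keap1*-mutant *Trsp* fl/fl::*Alb*Cre replicate 1, 0 collagen genes were called by limma in any comparison. In the order given above, 2, 3, 6, 4 and 2 then had an unadjusted p under 0.05. The shares over all genes in this smaller fit are not given, so these counts cannot be set beside the shares above.

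The fibrillar collagens are taken first, as the main product of stellate cells and fibroblasts. *Col1a1* (ENSMUSG00000001506), which encodes the alpha 1 chain of type I collagen, had normalized counts of 1894, 1631, 5906 and 1588 in *Trsp* fl/fl mice and 1466, 1201, 1579 and 2545 in *Trsp* fl/fl::*Alb*Cre. In *Keap1*-mutant *Trsp* fl/fl it had 1514, 1950, 2048 and 3086, and in *Keap1*-mutant *Trsp* fl/fl::*Alb*Cre 4935, 2189, 2368 and 1776. The highest counts were those of 1 library of the first group and 1 of the last, and all groups overlapped. Of these, only 5906 lay far from the other 3 of its group by the ratio of gap to range used below. With *Alb*Cre, *Col1a1* was at 0.703 of the level without it (95% interval 0.391 to 1.27) in mice without the substitutions, and at 1.25 (0.693 to 2.25) in *Keap1*-mutant mice. The substitutions gave 0.896 (0.497 to 1.61) without and 1.59 (0.883 to 2.86) with *Alb*Cre, so that no interval left out the value of 1. *Col1a2* (ENSMUSG00000029661), the partner chain, had 1504, 1429, 3891 and 1488 in *Trsp* fl/fl mice, 1324, 1218, 1482 and 2239 in *Trsp* fl/fl::*Alb*Cre, 1368, 1615, 1912 and 2351 in *Keap1*-mutant *Trsp* fl/fl, and 3367, 2109, 1992 and 1423 in *Keap1*-mutant *Trsp* fl/fl::*Alb*Cre. Its high libraries were those of *Col1a1*.

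*Col3a1* (ENSMUSG00000026043), the type III chain that joins type I in thin fibres, had 4750, 4638, 11834 and 5103 normalized counts in *Trsp* fl/fl mice and 4688, 4327, 5103 and 7032 in *Trsp* fl/fl::*Alb*Cre. It had 5704, 6107, 5949 and 9273 in *Keap1*-mutant *Trsp* fl/fl and 9598, 7883, 8339 and 5467 in *Keap1*-mutant *Trsp* fl/fl::*Alb*Cre. In the last group 3 of 4 libraries lay above all 4 of *Trsp* fl/fl::*Alb*Cre, but the fourth did not. The difference of these groups was 0.56 on the log2 scale (standard error 0.28, limma adjusted p = 0.31). *Col5a1* and *Col5a2*, type V chains that start fibrils, differed by 0.33 (standard error 0.16) and 0.47 (standard error 0.24) in the same comparison, with limma adjusted p of 0.31 and 0.32. Of the 9 fibrillar genes, 8 had a positive and 1 a negative log2 fold change there, with a median of 0.48. For *Alb*Cre without the substitutions 2 were positive and 7 negative, with a median of -0.27. Apart from *Trsp* fl/fl replicate 3, *Col3a1* had 4638 to 5103 in *Trsp* fl/fl mice, within the 4327 to 7032 of *Trsp* fl/fl::*Alb*Cre. Both splits share the *Trsp* fl/fl::*Alb*Cre group and count genes that vary together. No fibrillar gene passed the thresholds in either comparison.

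*Col27a1* (ENSMUSG00000045672), a fibrillar collagen best known from cartilage, came nearest to the thresholds. It had 54.7, 53.8, 50.4 and 66.9 normalized counts in *Trsp* fl/fl::*Alb*Cre and 213, 75.0, 91.6 and 126 in *Keap1*-mutant *Trsp* fl/fl::*Alb*Cre, and the groups did not overlap. The log2 difference was 1.01 (standard error 0.27, limma adjusted p = 0.067). The highest value was that of the *Keap1*-mutant library with *Xist* reads, and without it the log2 difference was 0.72 (limma adjusted p = 0.18). In *Trsp* fl/fl the counts were 66.6, 81.9, 113 and 56.0, and in *Keap1*-mutant *Trsp* fl/fl 101, 81.5, 97.1 and 74.6. The *Trsp* knockout effect on *Col27a1* differed between *Keap1* backgrounds by 0.82 on the log2 scale (standard error 0.38, limma adjusted p = 0.46), by 0.54 without the library with *Xist* reads, and by 0.36 without that library and *Trsp* fl/fl replicate 3. *Col11a2*, a cartilage collagen with 3.93 to 13.7 normalized counts, differed by 0.55 between *Keap1*-mutant and other mice with *Alb*Cre (limma adjusted p = 0.25).

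*Col5a3* (ENSMUSG00000004098), the third type V chain, had 83.7, 100, 134 and 53.5 normalized counts in *Trsp* fl/fl mice and 143, 152, 122 and 123 in *Trsp* fl/fl::*Alb*Cre. In *Keap1*-mutant *Trsp* fl/fl it had 87.0, 105, 71.8 and 95.6, and in *Keap1*-mutant *Trsp* fl/fl::*Alb*Cre 131, 153, 122 and 140. All 4 *Keap1*-mutant libraries with *Alb*Cre were above all 4 without it, and in the other background 1 *Trsp* fl/fl library lay within the range of the *Alb*Cre group. The log2 difference was 0.59 in each background (standard error 0.21 in both), with limma adjusted p of 0.29 and 0.22, and the difference between these effects was 0.00 (95% interval -0.63 to 0.64). With 1 library left out, the log2 difference by *Alb*Cre ran from 0.36, without *Trsp* fl/fl replicate 4, to 0.78 in mice without the substitutions, and from 0.49 to 0.67 in *Keap1*-mutant mice. *Col24a1*, another minor fibrillar collagen, had 30.4 to 35.4 normalized counts in *Trsp* fl/fl::*Alb*Cre livers and 17.4 to 29.0 in the *Keap1*-mutant group with *Alb*Cre, groups that did not overlap (limma adjusted p = 0.34).

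**Figure D2:**
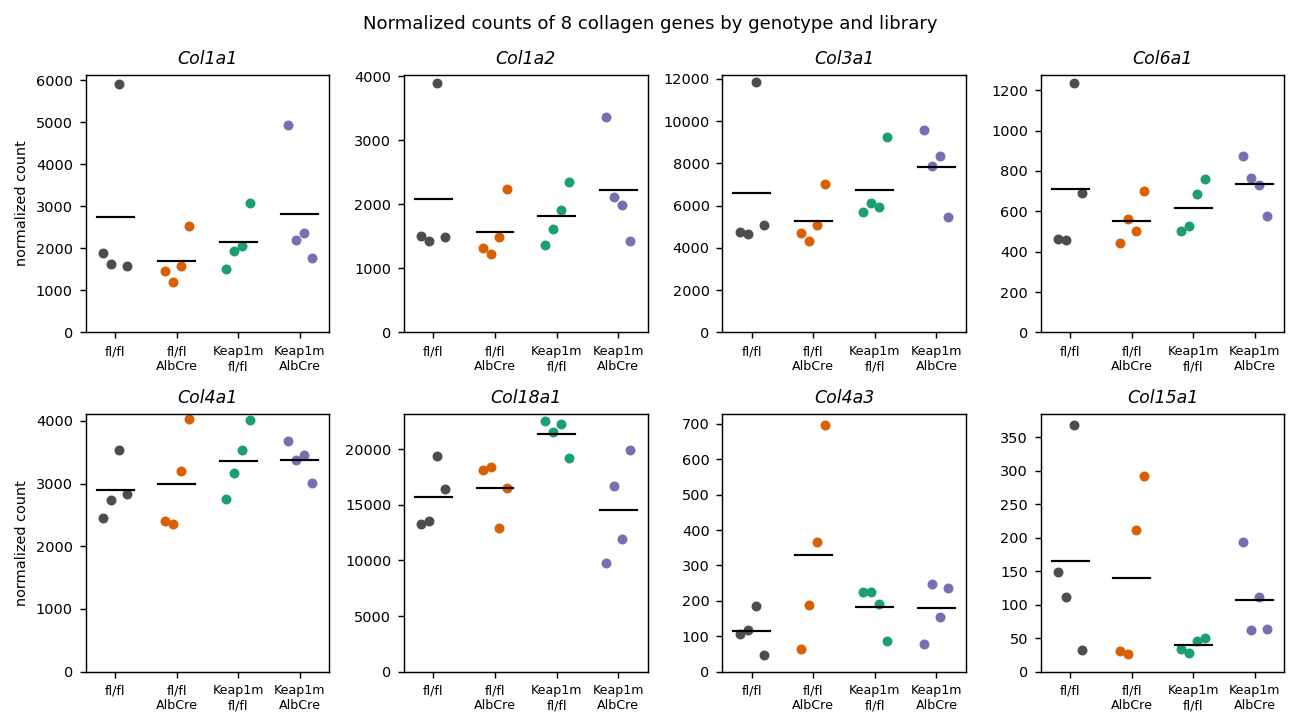
Each point is the normalized count of one library, and each line the mean of 4 libraries, for 8 collagen genes in the 4 genotypes (Keap1m, *Keap1*-mutant; all axes start at 0). For *Col1a1*, *Col1a2* and *Col3a1*, *Trsp* fl/fl replicate 3 lies far above the other 3 of its group.

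The type IV genes build basement membranes. *Col4a1* (ENSMUSG00000031502) and *Col4a2* (ENSMUSG00000031503), the chains of the common type IV network, ranged from 2351 to 4027 and from 1518 to 2312 normalized counts over the 16 libraries, a span of 1.71-fold and 1.52-fold, against 4.92-fold for *Col1a1*. With *Alb*Cre, *Col4a1* was at 1.02 of the level without it (95% interval 0.795 to 1.31), and in *Keap1*-mutant mice at 1.01 (0.788 to 1.3). *Col4a2* differed by 0.05 (standard error 0.13) and -0.06 (standard error 0.13) on the log2 scale. For these genes a 2-fold change lies outside the intervals in all 4 pairwise comparisons. *Col4a5* had 95.6 to 259 and *Col4a6* 2.02 to 31.9 normalized counts, both highest in *Trsp* fl/fl replicate 3.

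*Col4a3* (ENSMUSG00000079465) and *Col4a4* (ENSMUSG00000067158), chains known from the basement membranes of the kidney glomerulus, spanned 14.3-fold and 5.29-fold. *Col4a3* had 107, 118, 185 and 48.5 normalized counts in *Trsp* fl/fl mice and 64.8, 189, 366 and 696 in *Trsp* fl/fl::*Alb*Cre. Among *Keap1*-mutant mice it had 224, 225, 190 and 87.0 without and 77.4, 248, 155 and 237 with *Alb*Cre. The *Trsp* fl/fl::*Alb*Cre libraries held both a low and the 2 highest values. The log2 difference by *Alb*Cre was 1.17 (standard error 0.59, limma adjusted p = 0.49). *Col4a4* went with it, with 250 normalized counts in the library where *Col4a3* had 696 and 47.3 where it had 48.5. Over the 16 libraries the pair had r = 0.96, and 0.95 after each value was centred on its genotype mean, a pair chosen after its values were seen. By contrast *Col4a3* and *Col4a1* had r = 0.33 over the same 16 libraries.

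Type VI genes encode chains that assemble into trimers. *Col6a1* (ENSMUSG00000001119) had 464, 456, 1238 and 689 normalized counts in *Trsp* fl/fl mice and 443, 564, 501 and 702 in *Trsp* fl/fl::*Alb*Cre. It had 501, 525, 686 and 759 in *Keap1*-mutant *Trsp* fl/fl and 875, 764, 731 and 575 in *Keap1*-mutant *Trsp* fl/fl::*Alb*Cre. *Col6a2* ranged from 218 to 916 and *Col6a3* from 670 to 1515, with the highest value of each in *Trsp* fl/fl replicate 3. All 5 type VI genes tested had a negative log2 fold change for *Alb*Cre without the substitutions (median -0.37) and a positive one for the substitutions with *Alb*Cre (median 0.51), with lowest limma adjusted p of 0.68 and 0.43. The negative signs lean on *Trsp* fl/fl replicate 3, where each of these genes was highest. Apart from it, *Col6a1* had 456 to 689 in *Trsp* fl/fl and 443 to 702 with *Alb*Cre. As these genes vary together, their signs are not separate results. *Col6a5* and *Col6a6*, weakly expressed members, reached 46.9 and 128 in *Trsp* fl/fl replicate 3.

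*Col18a1* (ENSMUSG00000001435), the most abundant collagen transcript here, had 13250, 13505, 19403 and 16461 normalized counts in *Trsp* fl/fl mice, 18163, 18394, 12910 and 16479 in *Trsp* fl/fl::*Alb*Cre, and 22533, 21500, 22277 and 19228 in *Keap1*-mutant *Trsp* fl/fl. In *Keap1*-mutant *Trsp* fl/fl::*Alb*Cre it had 9739, 16659, 11923 and 19905. The *Keap1*-mutant group without Cre held the 3 highest values of all libraries, and the one with *Alb*Cre the 2 lowest. The log2 difference by *Alb*Cre in *Keap1*-mutant mice was -0.61 (standard error 0.21, limma adjusted p = 0.2), and that by the substitutions without *Alb*Cre was 0.46 (standard error 0.21, limma adjusted p = 0.52). The lowest value, 9739, was that of the library with *Xist* reads. Without it the difference by *Alb*Cre was -0.43 (limma adjusted p = 0.44). The *Trsp* knockout effect differed between *Keap1* backgrounds by -0.69 (standard error 0.29, limma adjusted p = 0.44). The sum of 7 hepatocyte markers was also lowest in the 2 libraries where *Col18a1* was lowest, at 940989 and 1267049 normalized counts against 1533171 to 2140990 in the other 14, and its part in the *Col18a1* values was not tested.

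*Col15a1* (ENSMUSG00000028339), the other multiplexin and a collagen of portal fibroblasts and vessel walls, spanned a 14-fold range. It had 149, 112, 368 and 32.3 normalized counts in *Trsp* fl/fl mice and 31.4, 26.2, 212 and 292 in *Trsp* fl/fl::*Alb*Cre. In *Keap1*-mutant mice it had 33.9, 27.8, 45.7 and 50.7 without and 193, 61.7, 112 and 64.0 with *Alb*Cre, groups that did not overlap. Its log2 difference there was 1.24 (standard error 0.74, limma adjusted p = 0.5). Without *Alb*Cre, the substitutions gave -1.55 (standard error 0.74, limma adjusted p = 0.55). In *Trsp* fl/fl::*Alb*Cre, replicates 1 and 2 were low and replicates 3 and 4 high, and the same libraries were apart for *Acta2*, the smooth muscle actin of myofibroblasts, with 24.3, 42.0, 155 and 252 normalized counts. The portal fibroblast marker sum was 903, 914, 1653 and 1751 in these libraries, and its part in the *Col15a1* values was not tested.

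Among the fibril-associated collagens, *Col14a1* (ENSMUSG00000022371), which is abundant in stellate cells, ranged from 1724 to 3265 normalized counts. Its log2 fold changes lay between -0.24 and 0.05 in the 4 pairwise comparisons (standard error 0.2 in each). *Col12a1* had 90.4, 86.5, 94.7 and 101 normalized counts in *Trsp* fl/fl mice and 68.8, 44.6, 72.9 and 81.7 in *Trsp* fl/fl::*Alb*Cre, and the groups did not overlap (limma adjusted p = 0.62). *Col16a1* was listed at 0 in 5 libraries and at 19.2 to 84.7 normalized counts in the other 11, with both kinds in each genotype. *Col20a1* had 7.97 to 39.4 normalized counts.

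The short-chain network collagens and the transmembrane collagens took 0.0866% and 0.282% of the collagen reads on average. Most of the latter share was that of *Col13a1*, with 0.235%. *Col8a1*, a collagen of vessel walls, had 25.7, 21.6, 81.6 and 9.95 normalized counts in *Trsp* fl/fl mice and 11.3, 6.71, 12.2 and 10.5 in *Keap1*-mutant *Trsp* fl/fl. The log2 difference was -1.14 (standard error 0.52, limma adjusted p = 0.54), and without *Trsp* fl/fl replicate 3 it was -0.65. *Col8a2*, its partner, had log2 differences by *Alb*Cre of -0.47 and -0.5 in the 2 backgrounds (standard error 0.26 in each, limma adjusted p = 0.54 and 0.42). *Col13a1*, a transmembrane collagen, had 119, 81.3, 142 and 127 normalized counts in *Trsp* fl/fl::*Alb*Cre livers and 109, 84.7, 69.6 and 49.0 in the *Keap1*-mutant group with *Alb*Cre, a log2 difference of -0.59 (standard error 0.25, limma adjusted p = 0.22). *Col25a1* had 4.66 to 17.4 normalized counts.

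**Figure D3:**
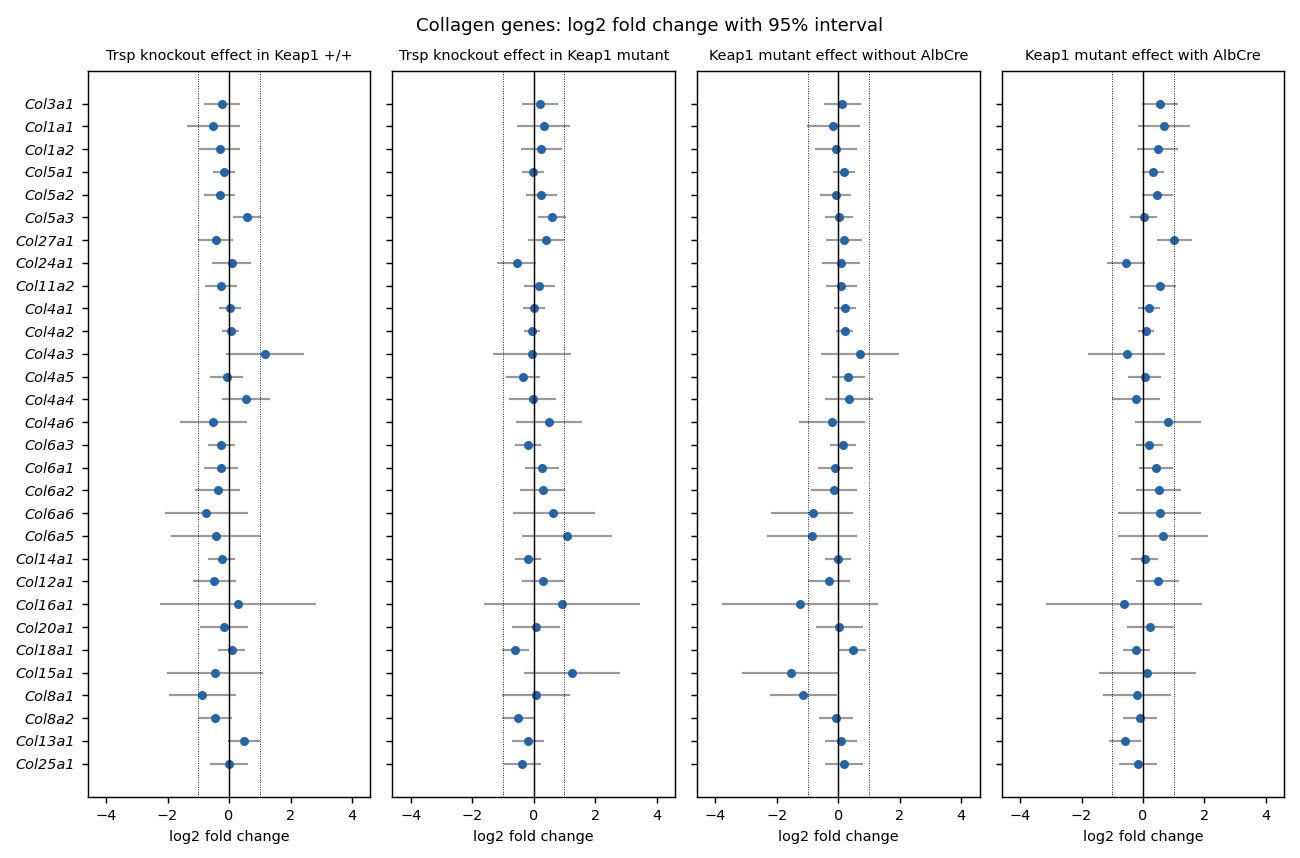
Points are log2 fold changes of the 30 tested collagen genes and grey lines their 95% intervals, in the 4 pairwise comparisons; dotted lines mark -1 and 1. For *Col4a1* and *Col4a2* all intervals lie between -1 and 1, while those of *Col15a1* and *Col16a1* are several times wider.

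The median log2 fold change of the 30 collagen genes was -0.25 for *Alb*Cre without the substitutions (9 positive and 21 negative), beside -0.01 over all genes tested. It was 0.13 for *Alb*Cre in *Keap1*-mutant mice (18 positive), 0.02 for the substitutions without *Alb*Cre (16 positive) and 0.21 for the substitutions with *Alb*Cre (21 positive), beside medians over all genes between -0.01 and 0.01. Each of these medians moved by over 1.5 times when 1 library was left out. For *Alb*Cre without the substitutions it was 0.047, on the other side of 0, without *Trsp* fl/fl replicate 3, -0.391 without *Trsp* fl/fl replicate 2 and -0.135 when *Trsp* fl/fl::*Alb*Cre replicate 2 was left out. For *Alb*Cre in *Keap1*-mutant mice it was 0.078 and 0.072 without replicates 1 and 3 of *Keap1*-mutant *Trsp* fl/fl::*Alb*Cre. For the substitutions without *Alb*Cre it was 0.231 without *Trsp* fl/fl replicate 3, 0.006 without *Keap1*-mutant *Trsp* fl/fl replicate 4, and below 0, down to -0.044, without replicate 1 or 2 of *Trsp* fl/fl or replicate 2 or 3 of *Keap1*-mutant *Trsp* fl/fl. For the substitutions with *Alb*Cre it was 0.127 and 0.13 without replicates 1 and 3 of *Keap1*-mutant *Trsp* fl/fl::*Alb*Cre, and 0.112 and 0.329 without replicates 2 and 4 of *Trsp* fl/fl::*Alb*Cre. The median for the difference in knockout effect between backgrounds was 0.32. It was 0.052 without *Trsp* fl/fl replicate 3 alone, 0.097 and 0.123 without replicates 1 and 4 of *Keap1*-mutant *Trsp* fl/fl, 0.21 without *Keap1*-mutant *Trsp* fl/fl::*Alb*Cre replicate 3, 0.202 without *Trsp* fl/fl::*Alb*Cre replicate 1 and 0.513 without *Trsp* fl/fl replicate 2. Without both *Trsp* fl/fl replicate 3 and *Keap1*-mutant *Trsp* fl/fl::*Alb*Cre replicate 1 it was 0.0.

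Collagen genes varied together over the libraries. Of 8 pairs tested over the 16 libraries (permutation test of r, 2-sided, Benjamini-Hochberg over the 8), *Col1a1* and *Col1a2* had Pearson r = 0.98 and Spearman rho = 0.97, with permutation p of 1e-05 for both, the smallest that 100000 permutations can give, and adjusted p of 2e-05 and 2.7e-05. The r was 0.98 after values were centred on genotype means and 0.95 without the 2 libraries farthest from the median of *Col1a1*. *Col1a1* and *Col3a1* had r = 0.92 and rho = 0.9, *Col4a1* and *Col4a2* r = 0.94 and rho = 0.95, and *Col6a1* and *Col6a2* r = 0.94 and rho = 0.92 (adjusted permutation p of 2e-05 for each r, and 2.7e-05, 2.7e-05 and 4e-05 for rho). Without the 2 farthest libraries these were r = 0.89, 0.96 and 0.87. *Col3a1* and *Col5a2* had r = 0.81 and rho = 0.8 (adjusted permutation p = 0.00019 and 0.0004), and r = 0.69 without the 2 farthest. *Col1a1* and *Col4a1* had r = 0.71 and rho = 0.87 (adjusted permutation p = 0.0015 and 6.4e-05), and r = 0.86 without the 2 farthest.

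The last 2 pairs joined *Col1a1* to markers of cells. *Col1a1* and *Acta2* had r = 0.65 and rho = 0.57 (adjusted permutation p = 0.0051 and 0.026), and r = 0.7 after centring on genotype means (permutation p = 0.0026). Without the 2 farthest libraries r was 0.47 and no longer passed the test (permutation p = 0.086, n = 14). *Col1a1* and *Lrat*, which encodes the enzyme that stores retinol in quiescent stellate cells, had r = 0.01 and rho = 0.07 (adjusted permutation p = 0.97 and 0.8), and r = 0.15 without the 2 farthest. As a description with no test, 17 of 29 other collagen genes tested (58.6%) had r over 0.5 with *Col1a1* after centring on genotype means, as had 7.0% of all other genes tested. The closest were *Col1a2* (0.98), *Col3a1* (0.94) and *Col6a2* (0.88), and 3 were negative, *Col18a1* (-0.19), *Col24a1* (-0.35) and *Col25a1* (-0.4). These values share libraries and size factors.

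**Figure D4:**
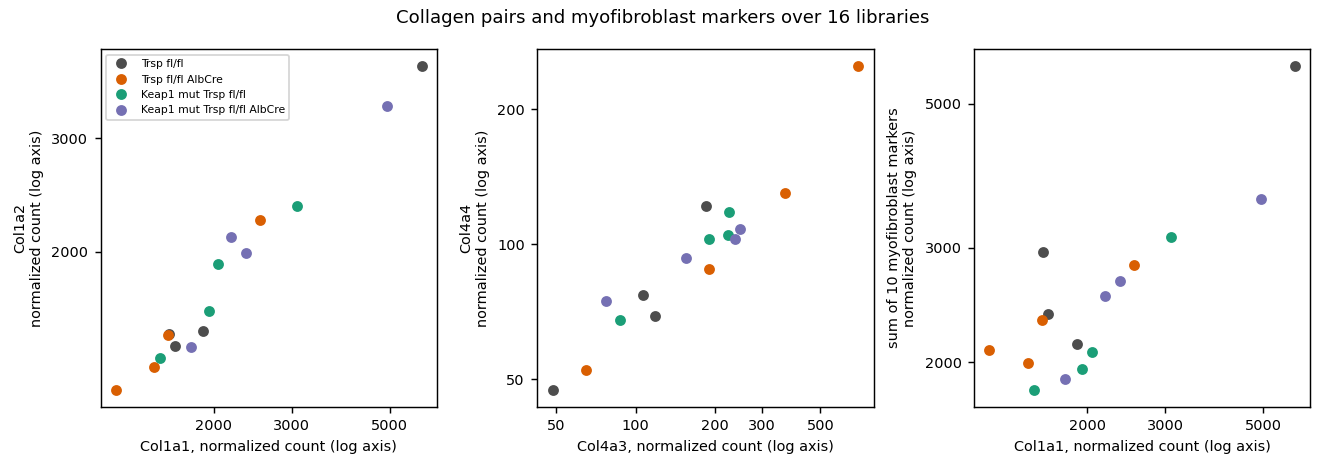
Each point is one of 16 libraries, coloured by genotype, with normalized counts on log axes: *Col1a2* against *Col1a1*, *Col4a4* against *Col4a3*, and the sum of 10 myofibroblast markers against *Col1a1*. *Trsp* fl/fl replicate 3 is the upper right point of the first and last panels, at 5906 normalized counts of *Col1a1*.

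Genes that serve collagen were taken from lists of 94 genes for its making, processing, breakdown, receptors, TGF-beta and PDGF signals and basement membrane partners, of which 86 were tested. Of these, 1 was called lower by *Alb*Cre in *Keap1*-mutant mice (0.171% of all genes tested were called there), 1 higher by the substitutions without *Alb*Cre (0.0127% of all), 1 lower for the difference between the knockout effects (0.057% of all), and 0 in the other comparisons (0.215% and 0.57% of all). At an unadjusted p under 0.05, 3 were higher and 7 lower by *Alb*Cre without the substitutions (11% of all genes in either direction), and 2 and 2 by *Alb*Cre in *Keap1*-mutant mice (13.6% of all). By the substitutions, 6 were higher and 1 lower without *Alb*Cre (9.07% of all), and 17 and 1 with it (17.6% of all). For the difference between the knockout effects, 6 were higher and 4 lower (10.8% of all). In each comparison with a call, the gene called was *Tram2* (ENSMUSG00000041779). It encodes a protein of the endoplasmic reticulum known to take part in type I collagen synthesis. It had 338, 353, 422 and 448 normalized counts in *Trsp* fl/fl mice, 459, 450, 397 and 461 in *Trsp* fl/fl::*Alb*Cre, 1079, 875, 930 and 752 in *Keap1*-mutant *Trsp* fl/fl, and 462, 466, 380 and 433 in *Keap1*-mutant *Trsp* fl/fl::*Alb*Cre. All 4 *Keap1*-mutant libraries without *Alb*Cre lay above the other 12. It rose by 1.21 on the log2 scale with the substitutions in mice without *Alb*Cre (standard error 0.12, limma adjusted p = 0.00065). In *Keap1*-mutant mice it fell by 1.05 with *Alb*Cre (standard error 0.12, limma adjusted p = 0.00049), and the knockout effects differed by -1.23 (standard error 0.17, limma adjusted p = 0.005). That last call held in 6 of the 16 fits that each left out 1 library and was lost in 10. The call by *Alb*Cre was lost without *Keap1*-mutant *Trsp* fl/fl replicate 1 (-0.96) or *Keap1*-mutant *Trsp* fl/fl::*Alb*Cre replicate 3 (-0.98), and that by the substitutions was lost in a fit of the compared groups only (adjusted p = 0.028). *Col1a1* and *Col1a2* had log2 fold changes of -0.16 and -0.08 (standard errors 0.4 and 0.32) in the comparison in which *Tram2* rose, with limma adjusted p of 0.94 and 0.97.

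The rest of the collagen-making genes had no call. *Serpinh1*, the collagen chaperone, had 791, 735, 926 and 458 normalized counts in *Trsp* fl/fl mice and 249, 247, 827 and 889 in those with *Alb*Cre, so that the second group split in the way *Col15a1* did. *P4ha1*, which hydroxylates prolines of collagen chains, had 405, 520, 535 and 640 in *Trsp* fl/fl mice and 381, 353, 364 and 304 in *Trsp* fl/fl::*Alb*Cre, groups that did not overlap, with a log2 difference of -0.56 (standard error 0.19, limma adjusted p = 0.26). In the *Keap1*-mutant group with *Alb*Cre *P4ha1* had 685, 540, 742 and 399, a log2 difference of 0.71 from the other *Alb*Cre group (standard error 0.19, limma adjusted p = 0.066). *Lox*, which cross-links fibrils, had its highest count, 213, in the *Keap1*-mutant library with *Xist* reads, and 34.1 to 127 in the others. *Agrn*, which encodes the basement membrane proteoglycan agrin, had 573 to 675 normalized counts in *Trsp* fl/fl::*Alb*Cre livers and 776 to 911 in the *Keap1*-mutant group with *Alb*Cre (log2 difference 0.44, standard error 0.1, limma adjusted p = 0.028), which missed both thresholds of a call.

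**Figure D5:**
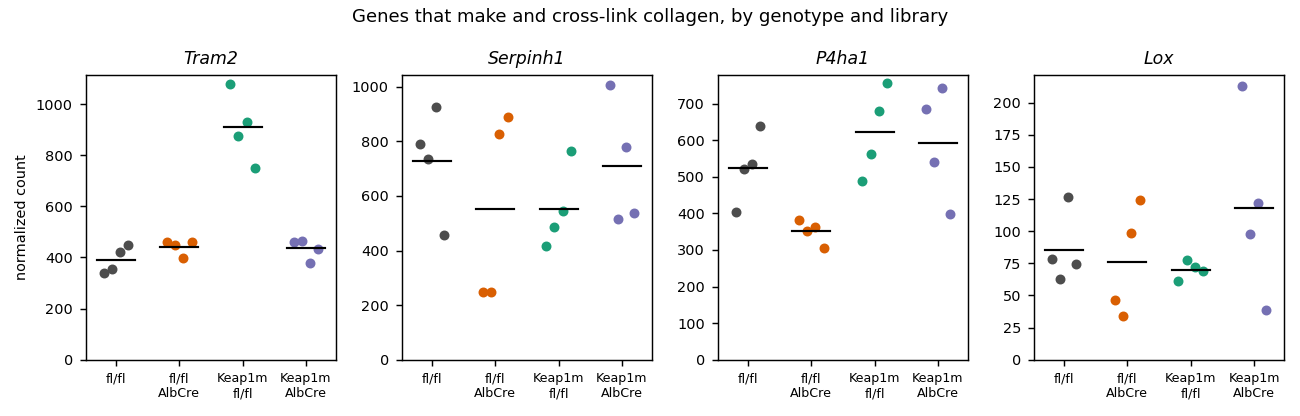
Each point is the normalized count of one library, and each line the mean of 4, for *Tram2*, *Serpinh1*, *P4ha1* and *Lox* in the 4 genotypes (Keap1m, *Keap1*-mutant; all axes start at 0). The 4 *Keap1*-mutant libraries without *Alb*Cre lie between 752 and 1079 for *Tram2*, above all others.

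Breakdown and signal genes, and markers of the cells that make collagen, likewise had no call. *Mmp2*, a gelatinase of stellate cells, ranged from 192 to 479 normalized counts, highest in *Trsp* fl/fl replicate 3. *Timp1*, an inhibitor of collagenases that is induced in fibrosis, was not tested, with 0.87 to 9.16 normalized counts in 15 libraries and 36.4 in the *Keap1*-mutant library with *Xist* reads. *Tgfb1*, the main fibrogenic cytokine, differed by -0.42 with *Alb*Cre in mice without the substitutions (standard error 0.15, limma adjusted p = 0.29). *Pdgfrb*, the PDGF receptor of stellate cells, had 439, 406, 409 and 409 normalized counts in *Keap1*-mutant *Trsp* fl/fl and 682, 566, 613 and 470 with *Alb*Cre, groups that did not overlap, and a log2 difference of 0.47 (standard error 0.12, limma adjusted p = 0.078). Of the 13 stellate markers, to which *Pdgfrb* belongs, 7 had a positive and 6 a negative log2 fold change in that comparison, with a median of 0.04, and that of *Lrat* was -0.23. *Des*, desmin of stellate and muscle cells, had 1234 normalized counts in *Trsp* fl/fl replicate 3 and 58.7 to 193 in the other 15 libraries. *Tagln*, another contractile gene, had 45.6 to 342. *Lrat* had 1074, 992, 884 and 800 in *Trsp* fl/fl mice and 526, 606, 655 and 696 in *Keap1*-mutant *Trsp* fl/fl, groups that did not overlap, with a log2 difference of -0.59 (standard error 0.24, limma adjusted p = 0.47).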

How the data were processed

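Liver RNA of 16 mice (4 genotypes, 4 mice each) was depleted of rRNA and sequenced as directional paired-end libraries. The authors estimated transcript abundance with Salmon on GENCODE mouse transcripts and processed it on the iDEP platform. The deposited table holds log2 values per gene and library, which were found to equal log2(reads / size factor + 4); reversing this gave whole reads for 100% of low values, within 0.05 reads. Salmon shares reads among similar transcripts, which adds error for related genes that is not in the table. Recovered reads per library were 11386716 to 19164156 (median 15509634). The 369 rows without a gene identifier, with 0.274% to 0.627% of the reads, were left out of the tests.

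Differences were tested with limma 3.58.1 in R 4.3.3 on the deposited log2 values (lmFit, contrasts, eBayes with trend), with a mean per genotype, all 16 libraries and no covariates. Genes under a normalized count of 10 in more than 12 of the libraries were not tested. Since nothing says how mice were matched, p-values measure the spread between these mice. The fit was tested on simulated data. Correlations used 100000 permutations in Python 3.11.15 with numpy 2.4.6. Intervals are 95%. Named genes were a fixed list of 13 collagens, every tested collagen with adjusted p under 0.05, the 3 with the largest moderated t in each comparison, and 12 genes of the supporting lists with any other of adjusted p under 0.05; further collagens are named by range or where a count of 5 or fewer was given, chosen after their values were seen. The members and lists were chosen with earlier results of these data known.

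The alternatives were a pseudocount of 1, no filter, library totals for scaling, limma voom on recovered reads, the compared groups only, the replicate number as a block, and each library left out. Leaving out 2 libraries together was chosen after seeing the data. Samples with the same replicate number did not deviate together (correlations from -0.315 to 0.163). The table's annotation is newer than the GRCm38 references used for transcript lengths and promoters.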

Additional observations from a re-analysis of the deposited data

Results flagged for a closer look

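In 10 of 120 groups of 4 libraries (30 genes in 4 genotypes), 1 library lay far from the other 3 by the ratio of its gap to the range of the group; chance alone gives about 6.0 such groups. In *Trsp* fl/fl replicate 3, *Col1a1* was at 12.53 on the log2 scale (others 10.64 to 10.89), *Col1a2* at 11.93 (10.49 to 10.56) and *Col3a1* at 13.53 (12.18 to 12.32). *Col3a1* was also high in *Keap1*-mutant *Trsp* fl/fl replicate 4, at 13.18 (12.48 to 12.58). *Col6a6* was high in *Keap1*-mutant *Trsp* fl/fl replicate 1, at 4.53 (3.95 to 4.04). Low values were those of *Col12a1* in *Keap1*-mutant *Trsp* fl/fl replicate 1, at 5.62 (6.5 to 6.55), of *Col25a1* in *Trsp* fl/fl replicate 1, at 3.28 (3.93 to 4.05), and of *Col6a3* in *Keap1*-mutant *Trsp* fl/fl::*Alb*Cre replicate 4, at 9.42 (9.98 to 10.05). *Col16a1* was listed at 0 reads, 2.0 on the log2 scale, in *Trsp* fl/fl replicate 2 (others 5.53 to 6.1) and in *Trsp* fl/fl::*Alb*Cre replicate 1 (5.86 to 6.47).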

How the results depend on the processing

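No collagen gene was called by limma in any comparison under any alternative run, the replicate block included (0 called); the lowest adjusted p was 0.036 (*Col27a1*, substitutions with *Alb*Cre, without *Keap1*-mutant *Trsp* fl/fl::*Alb*Cre replicate 2). The median log2 fold change of collagen genes for *Alb*Cre without the substitutions was between -0.391 and 0.047 with 1 library left out, and turned positive, 0.047, without *Trsp* fl/fl replicate 3 and without that library and *Keap1*-mutant *Trsp* fl/fl::*Alb*Cre replicate 1 together. The other medians also moved by over 1.5 times with 1 library left out, and that for the substitutions without *Alb*Cre changed sign (-0.044 to 0.231). For the difference between backgrounds it was 0.052 to 0.513, and 0.0 without both libraries. Of the supporting genes, of which *Tram2* alone had been called, 0 were called by *Alb*Cre in *Keap1*-mutant mice when library totals set the scale, 0 by the substitutions without *Alb*Cre in a fit of the compared groups only, and 0 for the difference between backgrounds with library totals, with the replicate block or without both libraries. With 1 library left out, counts were 0 to 1 for the first and the last of these. Adjusted p of *Tram2* was above 0.01 in each fit in which the difference was not called. The r of *Col1a1* and *Acta2* was 0.47 without the 2 libraries farthest from the median. The cause of these changes was not tested. The fit of the compared groups only gives no value for the difference between backgrounds. Samples with the same replicate number share only a number. With 4 mice a group, the interval of *Col1a1* reached from 0.391 to 1.27 for *Alb*Cre without the substitutions.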
